A study of Homo sapiens with 8 samples.

Results

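VPREB1, VPREB3, IGLL1, MZB1 and JCHAIN, 5 genes of the surrogate light chain and of antibody assembly in B cells, were followed in DOHH2 cells over 24 h of culture with the BET bromodomain inhibitor BAY1238097 or with DMSO. The 5 genes were selected with earlier results of the same treatment contrast in view, so their values are given as a description with no test. All array probes whose annotated symbol is one of the 5 were taken, which gave 8 of 47231 probes and 5 of 20046 named genes. DOHH2 is a human cell line established from a B cell lymphoma of follicular origin. RNA was measured on 8 bead arrays, 4 from cells given DMSO, the solvent, and 4 from cells given BAY1238097, with 1 array of each at 4, 8, 12 and 24 h. The dose is not given in the labels, all arrays are of 1 cell line, and nothing in the labels says that the cultures were separate, so the errors cover the spread between times in what may be 1 time course. BET proteins bind acetylated histones through their bromodomains and promote transcription, and their inhibitors block that binding.

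An antibody is built in the endoplasmic reticulum from heavy and light chains. In precursor B cells, which have no light chain yet, VPREB1 and IGLL1 form a surrogate light chain that pairs with the first heavy chain in the pre-B cell receptor. VPREB3 binds immunoglobulin chains early in their assembly, MZB1 is an endoplasmic reticulum protein that helps antibody assembly and secretion together with the chaperone HSP90B1, and JCHAIN joins IgM and IgA units into polymers.

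Values are the deposited log2 values, on which a difference of 1 doubles the level. A probe counts as above background on an array where fewer than 0.05 of 437 probes for olfactory receptor genes, taken as silent in these cells, were at least as bright. It was kept where that held on at least 4 of the 8 arrays, which left 18640 probes. Among the members, 5 of 8 probes and 4 of 5 genes were kept. Mean array intensity was 264 to 419 with DMSO and 262 to 366 with BAY1238097. Before normalization the kept probes were dimmer with BAY1238097 than with DMSO by a mean log2 difference of -0.011, -0.26, -0.24 and -0.32 at 4, 8, 12 and 24 h, and the deposited values are normalized to equal distributions. In bulk RNA, fewer cells of a type and less RNA per cell cannot be told apart. Of 10 B cell identity genes named on the array, 6 were above background on all 8 arrays, while PAX5 and BCL6 were above it on 0. No level can be read from a probe at background, and absence of a transcript was not tested. Of the 8 B cell identity genes with a kept probe 3 fell and 0 rose, with a median of -0.37. Among all kept probes 12.8% were lower and 12.7% higher at an adjusted p of 0.05 (limma). The differences were -0.73 ± 0.17 for FCRLA, -0.63 ± 0.18 for CD79B and -0.27 ± 0.06 for MS4A1 (adjusted p = 0.0235, 0.0437 and 0.0220, limma). Each of these 3 calls was lost in 3 or more of 11 alternative settings, with adjusted p up to 0.112, 0.171 and 0.107. The MS4A1 probe was near background, above it on 4 DMSO but only 2 treated arrays. Other MS4A1 probes were not kept and differed by 0.02 and -0.16. CD3D, CD3E, CD3G and CD4 of T cells and CSF1R, ITGAM and MPO of myeloid cells were above background on 0 arrays. Of these lists, 2 of 10 T cell and 2 of 9 myeloid genes were kept, and 0 of 10 stromal and epithelial genes. Summed intensity of the T cell list was 1700 to 2161 with DMSO and 1620 to 1882 with BAY1238097, of the myeloid list 1082 to 1328 and 1039 to 1194, and of the stromal and epithelial list 1547 to 1924 and 1542 to 1768. TRAT1 of the T cell list and MS4A7 of the myeloid list were above background on all 4 DMSO arrays and on 0 of 4 treated ones, so only bounds can be given. TRAT1 was at least 1.82-fold lower with BAY1238097 (measured means 7.64 and 6.72) and MS4A7 at least 1.19-fold lower (7.03 and 6.61). Both probes passed the filter only through the DMSO arrays, which favours this direction, so no p-value is given. The other TRAT1 and MS4A7 probes were not kept and differed by -0.07 and -0.11. LCK and CD14, the other kept genes, differed by -0.03 and -0.04. The part of these cells in the results was not tested.

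The promoter windows of VPREB3, MZB1 and JCHAIN are shown because these are the members whose treated arrays parted from DMSO. The 250 bases before the annotated start, from RefSeq on GRCh38.p14, are printed 5′ to 3′ on the gene's strand. Capitals mark matches to an octamer (ATGCAAAT or its reverse complement ATTTGCAT) or an E-box (CAGGTG or CACCTG). The VPREB3 window lies at chr22:23754426-23754675, the MZB1 window at chr5:139389914-139390163 and the JCHAIN window at chr4:70666509-70666758, all on the minus strand.
VPREB3: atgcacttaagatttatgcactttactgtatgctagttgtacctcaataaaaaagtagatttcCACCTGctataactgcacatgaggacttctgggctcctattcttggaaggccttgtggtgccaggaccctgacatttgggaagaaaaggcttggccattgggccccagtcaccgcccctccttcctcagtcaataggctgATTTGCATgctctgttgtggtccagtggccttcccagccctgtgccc
MZB1: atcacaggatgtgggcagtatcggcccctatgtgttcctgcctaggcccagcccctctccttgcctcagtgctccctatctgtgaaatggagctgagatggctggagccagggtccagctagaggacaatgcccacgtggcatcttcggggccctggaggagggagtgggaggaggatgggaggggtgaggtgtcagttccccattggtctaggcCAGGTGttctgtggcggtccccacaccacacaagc
JCHAIN: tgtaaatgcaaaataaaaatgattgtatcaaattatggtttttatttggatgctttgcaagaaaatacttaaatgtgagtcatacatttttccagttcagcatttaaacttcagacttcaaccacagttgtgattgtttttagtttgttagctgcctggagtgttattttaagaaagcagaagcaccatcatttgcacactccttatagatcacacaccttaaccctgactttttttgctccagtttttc
Octamers are bound by POU factors in immunoglobulin promoters, E-boxes by factors such as TCF3. The octamer was found in 1 of the 5 member windows, that of VPREB3, 47 to 40 bases before the start, and in 1.63% of all 35116 windows in the table. The E-box was in 4 of 5 member windows and in 17.5% of all windows. It lay 187 to 182 bases before the start in VPREB3 and 35 to 30 in MZB1. In VPREB1 it lay at 203 to 198 and in IGLL1 at 161 to 156. CCCNNGGG, the core bound by EBF1, was searched on both strands too. It was in the windows of VPREB1 and IGLL1 and in 17.1% of all windows. The JCHAIN window held none of the 3. GC content was 61.2% in the MZB1 window and 32.8% in that of JCHAIN. A match describes letters and shows no binding.

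Of the surrogate light chain pair, VPREB1 and 2 of the 3 IGLL1 probes were at or near background. The VPREB1 probe was above background on 0 of 8 arrays, at 6.42, 6.38, 6.49 and 6.47 with DMSO and 6.41, 6.50, 6.42 and 6.40 with BAY1238097 at 4, 8, 12 and 24 h. Those values overlap and no level of VPREB1 can be read from them.

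IGLL1, the lambda5 chain that partners VPREB1, has 3 probes that gave different levels. ILMN_1656713 was above background on 0 of 8 arrays, between 6.53 and 6.69 with DMSO and between 6.49 and 6.59 with BAY1238097. ILMN_1815840 read 6.66, 6.75, 6.83 and 7.03 with DMSO and 6.65, 6.58, 6.64 and 6.62 with BAY1238097. It was above background only on the 12 h and 24 h DMSO arrays, and the groups did not overlap, though the closest values differed by little. As the 4 h and 8 h DMSO arrays and every treated array were not above background for that probe, no fold is given. The measured means were 6.82 with DMSO and 6.62 with BAY1238097. No bound on the probe follows from them. It was not kept and not tested. ILMN_2393765 was bright on every array. It read 13.56, 13.30, 13.51 and 13.67 with DMSO and 13.58, 13.53, 13.48 and 13.57 with BAY1238097. The groups overlapped, with a mean difference of 0.03 ± 0.07 (SE, 4 time points) that turned to -0.04 without the 8 h arrays. The slope per unit of log2 hours was 0.06 ± 0.06 with DMSO and -0.01 ± 0.06 with BAY1238097, so neither arm moved by more than its error. At intensities of 10183 to 13620 it had only 52 to 225 probes at least as bright on an array. The brightest probe of an array read 15427 to 16600. How far a change can show so near that level was not tested. The transcript of ILMN_2393765 is annotated as the same one as that of ILMN_1815840, and which RNA ILMN_2393765 binds was not tested.

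VPREB3 fell away from its DMSO level after 4 h in the BAY1238097 arm. With DMSO it read 9.42, 9.22, 9.27 and 9.14, a mean of 9.26 (SD 0.12). With BAY1238097 it read 9.35, 7.76, 7.45 and 7.06, a mean of 7.91 (SD 1.01). The 4 h treated array lies inside the DMSO range, and each later treated array lies below all 4 DMSO arrays. The differences were -0.07, -1.46, -1.82 and -2.08, a mean of -1.36 ± 0.31 (SE, 4 time points), and 4.22-fold lower at 24 h. In intensity the probe read 448, 750, 849 and 745 with DMSO and 420, 209, 189 and 134 with BAY1238097, so unnormalized intensity gives the same direction at all 4 times. The slope per unit of log2 hours was -0.10 ± 0.13 with DMSO and -0.87 ± 0.13 with BAY1238097. Of all 18640 kept probes 7047 had a treatment difference at least as low at 4 h, VPREB3 included, and 6 at 24 h.

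**Figure D1:**
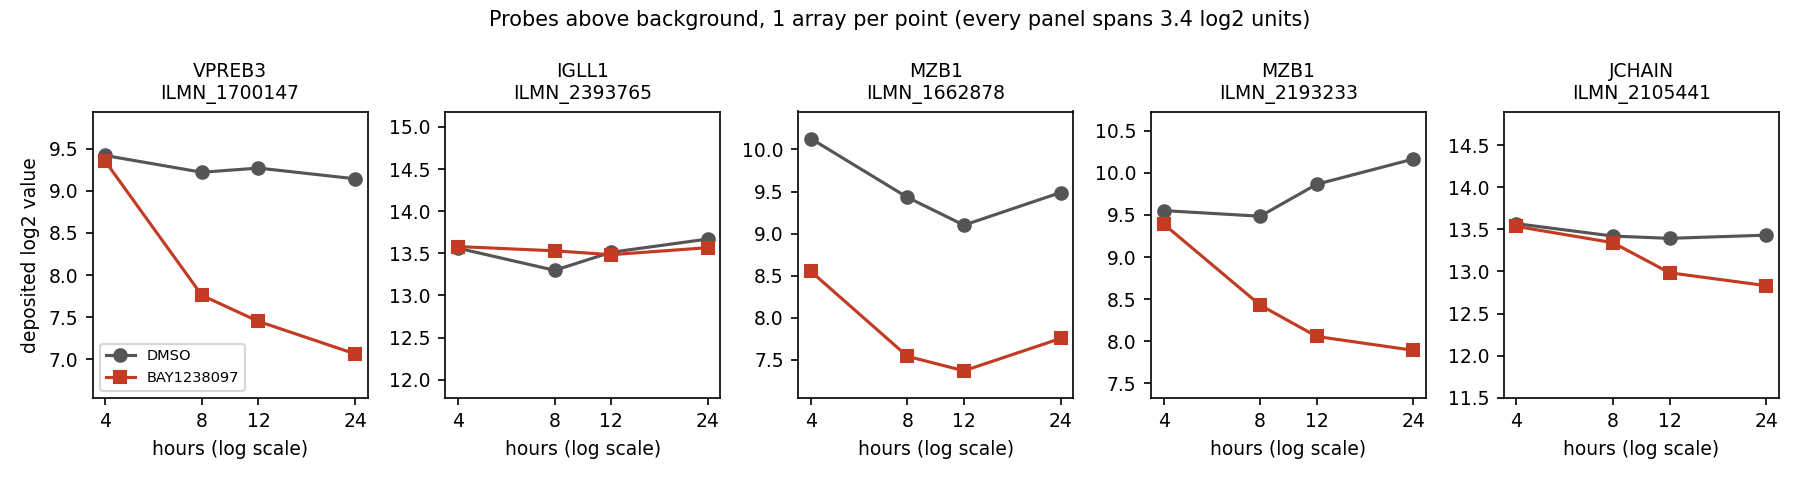
Deposited log2 values of the 5 kept member probes against hours of culture, DMSO and BAY1238097 as separate lines with 1 point per array. VPREB3 and the MZB1 probe ILMN_2193233 part from DMSO after 4 h, MZB1 ILMN_1662878 is already apart at 4 h, JCHAIN parts by 12 h, and the bright IGLL1 probe stays together.

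MZB1 was lower in both of its kept probes, which are annotated to the same transcript and differed in timing. ILMN_1662878 read 10.13, 9.43, 9.10 and 9.49 with DMSO and 8.55, 7.54, 7.37 and 7.76 with BAY1238097. The groups did not overlap, and the difference was already -1.58 at 4 h and then -1.89, -1.73 and -1.73, a mean of -1.73 ± 0.07 (SE, 4 time points), or 3.32-fold lower. In intensity this probe read 758, 874, 750.5 and 947 with DMSO and 242, 179, 178 and 219 with BAY1238097. At each of the 4 times it was among the lowest 18 of all kept probes by treatment difference. ILMN_2193233 read 9.55, 9.48, 9.86 and 10.16 with DMSO and 9.39, 8.43, 8.06 and 7.89 with BAY1238097. Here too the groups did not overlap, but the gap opened with time: -0.16, -1.06, -1.81 and -2.27, a mean of -1.32 ± 0.32, and 4.83-fold lower at 24 h. In intensity it read 496, 912, 1277 and 1494 with DMSO and 431, 333, 293 and 241 with BAY1238097. By treatment difference 4629 kept probes were at least as low at 4 h and 4 at 24 h. The DMSO arms went opposite ways between 4 and 24 h, by -0.64 on the former probe and by 0.61 on the latter, while the treated arms moved by -0.80 and -1.50. The slope per unit of log2 hours was -0.26 ± 0.18 with DMSO and -0.31 ± 0.18 with BAY1238097 on ILMN_1662878, against 0.26 ± 0.10 and -0.58 ± 0.10 on ILMN_2193233. Across the 4 DMSO arrays the 2 probes correlated at r = -0.395, and across the 4 treated arrays at 0.863, with time shared by all points. How far the difference at 4 h is a property of 1 probe was not tested.

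JCHAIN was among the brightest transcripts, with 106 to 373 probes at least as bright on an array. It read 13.57, 13.42, 13.39 and 13.43 with DMSO and 13.54, 13.34, 12.98 and 12.83 with BAY1238097. The 4 h treated array lies inside the DMSO range, the 8 h one just below it, and those of 12 and 24 h clearly below every DMSO array. The differences were -0.03, -0.08, -0.41 and -0.60, a mean of -0.28 ± 0.11 (SE, 4 time points), 1.52-fold lower at 24 h. Per unit of log2 hours the DMSO arm changed by -0.05 ± 0.05 and the treated arm by -0.29 ± 0.05. By treatment difference 8151 of 18640 kept probes were at least as low at 4 h and 1059 at 24 h. Leaving out the 24 h arrays reduced the mean to -0.17. Treated intensity was 10910, 10297, 9156 and 7313, where the brightest probe of an array read 15427 to 16600.

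**Figure D2:**
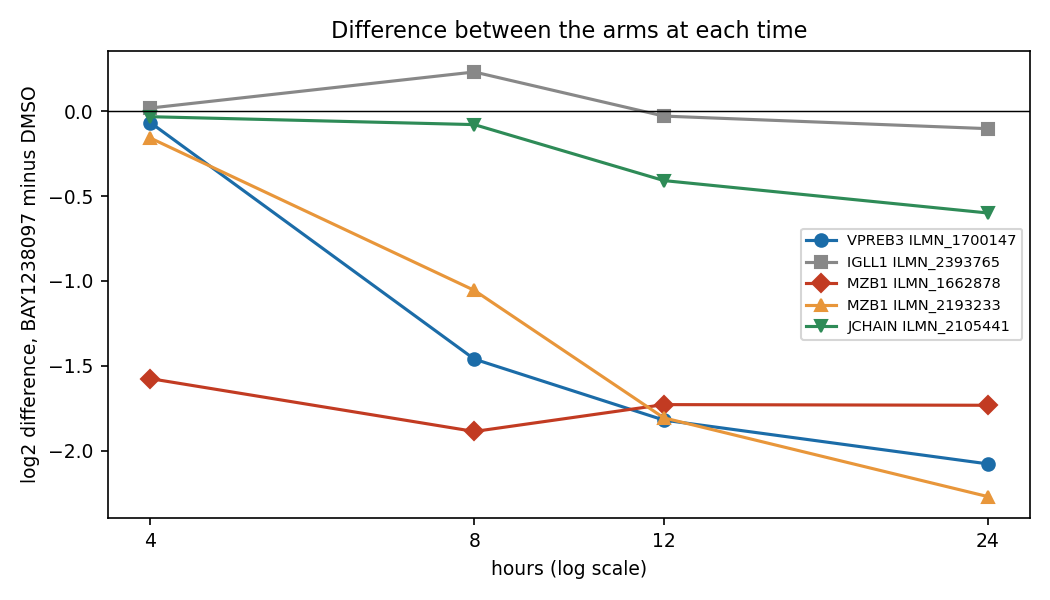
Log2 difference, BAY1238097 minus DMSO, of the 5 kept member probes at 4, 8, 12 and 24 h, 1 point per pair of arrays. All 5 are below 0 at 24 h, from -0.10 for IGLL1 to -2.27 for MZB1.

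In the limma fit over all 18640 kept probes, 12.8% were lower at an adjusted p of 0.05, 12.7% higher and 25.5% either. The 3 of 5 member probes on the lower side, VPREB3 and both of MZB1, are no test result, since the members were selected from this contrast and nothing is read from their count. Over 10 alternative settings the difference ranged from -1.92 to -1.68 on MZB1 ILMN_1662878 and from -1.71 to -1.01 on MZB1 ILMN_2193233. For VPREB3 it ranged from -1.79 to -1.12. MZB1 ILMN_1662878 was past the threshold in 10 of these settings, VPREB3 and MZB1 ILMN_2193233 each in only 6. The settings reuse the contrast from which the members were selected, which favours passing, so 10 of 10 is no support. The median difference was -1.32 over the kept member probes, which is the value of MZB1 ILMN_2193233, and 0.0080 over all kept probes. Because of the same selection, nothing is read from that gap either. In all, 2364 probes were higher and 2394 lower, and with each array scaled to its median in place of quantile normalization 1163 were higher and 3752 lower.

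**Figure D3:**
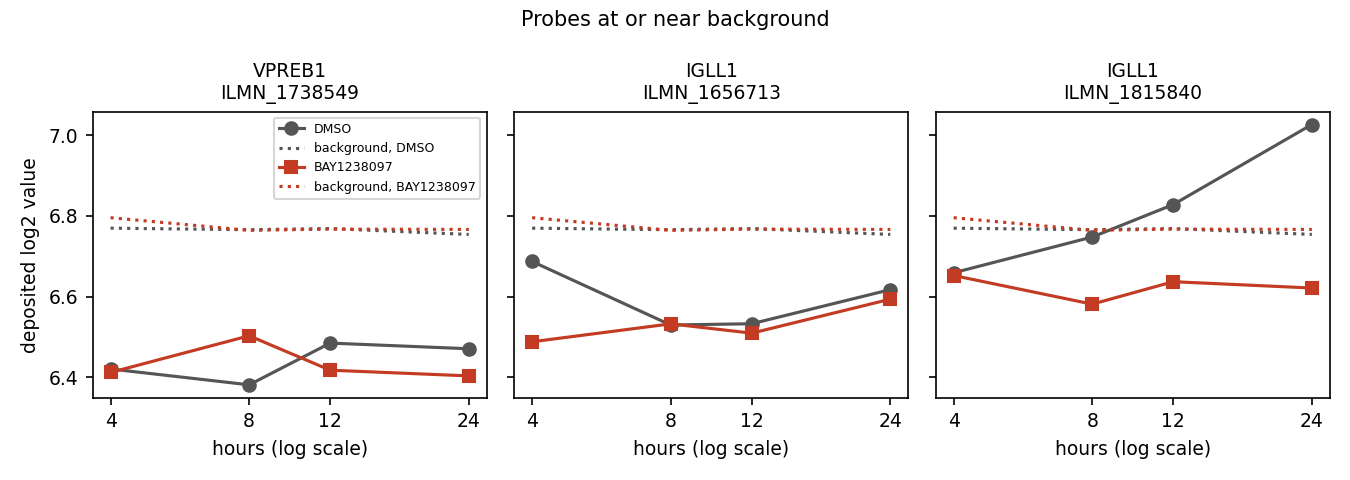
Deposited log2 values of the 3 member probes that were not kept, by group and time, with the level below which 95% of olfactory receptor probes lie. The VPREB1 probe and IGLL1 ILMN_1656713 stay below it, and IGLL1 ILMN_1815840 passes it on the DMSO arrays of 12 and 24 h.

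Genes that act before or beside these members were then compared over the same contrast. Lists of related genes were compiled with earlier results of these data known. Their counts and limma p-values therefore describe these arrays and are no independent test. Among 27 genes of the pre-B stage and of surrogate light chain regulation, 19 had a kept probe, of which 6 fell and 2 rose, with a median of -0.18, beside 12.8% of all kept probes lower and 12.7% higher. RAG1, RAG2, DNTT, PAX5, ERG and TCL1A were above background on 0 of 8 arrays. MYB, a transcription factor of progenitors, fell by 1.33 ± 0.06 (adjusted p = 0.000155, limma; lower at 4 of 4 times), and IL7R, the receptor for interleukin 7, fell by 1.30 ± 0.11 (adjusted p = 0.00125), with -0.92 ± 0.09 on its other kept probe. IKZF1, which encodes Ikaros, fell by 0.85 ± 0.08 (adjusted p = 0.00194), and TCF3, an E-box factor of early B cells, fell by 0.70 ± 0.19 (adjusted p = 0.0346). At 4 h TCF3 was at 0.05, with -1.09, -1.03 and -0.75 at the later times. CD79B of the antigen receptor, given above, was lower on its other kept probes too, by -0.63 ± 0.13 (adjusted p = 0.0167) and -0.44 ± 0.06 (adjusted p = 0.00566). On the CD79B probe given above the gap shrank with time, at -1.24, -0.82, -0.38 and -0.08. SPI1 fell by 0.63 ± 0.07 (adjusted p = 0.00315). IRF8 rose by 0.63 ± 0.11 (adjusted p = 0.00994) and IRF4 by 0.49 ± 0.11 (adjusted p = 0.0211). EBF1, a main regulator of surrogate light chain genes, was at -0.14 ± 0.14 (adjusted p = 0.513) and CD79A at -0.48 ± 0.15 (adjusted p = 0.0596). The TCF3 call was lost in 5 of 11 alternatives (adjusted p = 0.0519 to 0.149), that of IRF8 in 2 (0.0546 and 0.0613) and that of IRF4 in 3 (0.0801 to 0.208), among them median scaling, where IRF4 was at 0.26.

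In the endoplasmic reticulum, where MZB1 works, 31 of 33 folding and assembly genes had a kept probe. Of these 5 fell and 1 rose, and 25 did not pass, with a median of -0.11. Beside 12.8% of all kept probes lower and 12.7% higher, these counts do not set the list apart. FKBP11, a prolyl isomerase of secretory cells, fell by 1.20 ± 0.16 (adjusted p = 0.00441), with differences of -0.52, -1.34, -1.44 and -1.52 over the 4 times. SDF2L1, a cofactor of the chaperone HSPA5, fell by 0.78 ± 0.08 (adjusted p = 0.00213). TXNDC5 (adjusted p = 0.0101) and PRDX4 (adjusted p = 0.0140), which act in disulfide formation, each fell by 0.55, and ERO1A, an oxidase for disulfides, fell by 0.26 ± 0.06 (adjusted p = 0.0227). HSP90B1, the chaperone partner of MZB1, rose by 0.28 ± 0.07 (adjusted p = 0.0363), a call lost in 3 of 11 alternatives (adjusted p = 0.126 to 0.204), median scaling among them. HSPA5 itself was at -0.14 ± 0.15 (adjusted p = 0.570). Without the 4 h arrays 11 genes of this list fell, and without those of 8 h or 12 h 2 did. In a model with no time factor FKBP11, SDF2L1 and PRDX4 lost their calls (adjusted p = 0.0693, 0.179 and 0.0805). TXNDC5 lost its call in 2 alternatives (0.0513 and 0.0621), PRDX4 in 3 in all, and ERO1A in 4 (0.0528 to 0.109).

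Of 22 genes of the signal peptide machinery and the translocon, which bring new chains into the endoplasmic reticulum, 21 were kept, 4 fell, 2 rose and 15 did not pass, with a median of -0.081. These counts too stand beside 12.8% of all kept probes lower and 12.7% higher and do not set the list apart. SRP72 fell by 0.50 ± 0.07 (adjusted p = 0.00418) and SRPRB by 0.47 ± 0.08 (adjusted p = 0.00928), both of the signal recognition pathway, whereas SRP54 of the same particle rose by 0.29 ± 0.05 (adjusted p = 0.0105). SEC11A, a signal peptidase subunit, rose by 0.26 ± 0.06 (adjusted p = 0.0255). Both rises lost their calls with median scaling, at 0.07 (adjusted p = 0.522) and 0.04 (adjusted p = 0.677). SEC61A1, the channel of the translocon, and SSR1 fell by 0.25 and 0.22 (adjusted p = 0.0297 and 0.0293). Those calls were lost in 4 of 11 alternatives (0.0502 to 0.765) and in 5 (0.0846 to 0.236), that of SRPRB in 2 (0.0569 and 0.264) and that of SRP72 in 1 (0.136).

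Of 17 genes of the plasma cell programme, the state in which MZB1 and JCHAIN are most used, 16 were kept, 6 fell, 2 rose and 8 did not pass, with a median of -0.25, against the same background. TNFRSF17, the receptor BCMA, fell by 2.52 ± 0.10 (adjusted p = 0.000146), at -2.16, -2.75, -2.66 and -2.51 over the 4 times. TNFRSF13B, the receptor TACI, fell by 1.03 ± 0.13 (adjusted p = 0.00377), and EAF2, an elongation factor partner, fell by 0.73 ± 0.05 (adjusted p = 0.00108). CD27, a memory and plasma cell receptor, fell by 0.94 ± 0.21 (adjusted p = 0.0194). SDC1 fell by 0.65 ± 0.11 (adjusted p = 0.00831) and XBP1, which drives secretion genes, by 0.32 ± 0.06 (adjusted p = 0.00950). The risers were IRF4 and CD38, the latter by 0.38 ± 0.10 (adjusted p = 0.0375; lost in 6 of 11 alternatives, at 0.0643 to 0.243). PRDM1, the repressor that sets the plasma cell state, was at -0.26 ± 0.25 (adjusted p = 0.497) with differences from -1.12 at 4 h to 0.61 at 24 h, and POU2AF1, a coactivator at octamers, at 0.18 ± 0.18 (adjusted p = 0.522). CD27 lost its call in 4 of 11 alternatives (adjusted p = 0.0518 to 0.0968), XBP1 in 3 (0.0587 to 0.0703) and SDC1 in 1, with no time factor (0.154). None of the 17 immunoglobulin constant and lambda-like genes listed had a named probe on the array, so the antibody chains themselves were not analysed here.

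**Figure D4:**
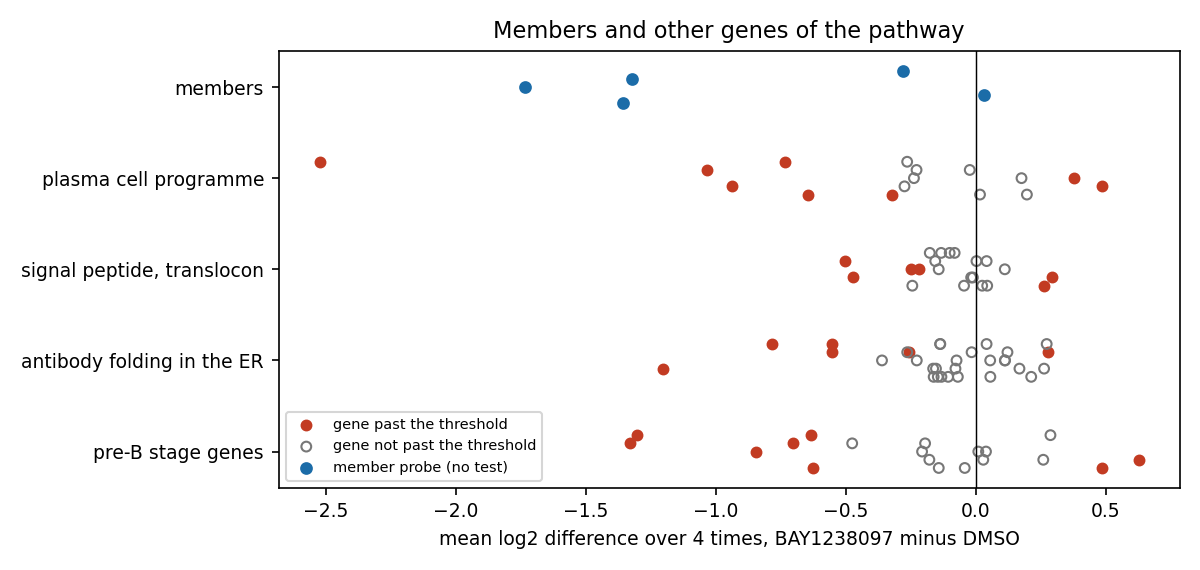
Mean log2 difference over the 4 times, BAY1238097 minus DMSO, of the 5 kept member probes (blue) and of each kept gene of the 4 other lists, 1 point per gene, filled where past an adjusted p of 0.05 and open otherwise. TNFRSF17 at -2.52 lies below every other point shown, members included; vertical offsets only separate points.

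Over the 8 arrays, the patterns most like those of the members were found among 6547 other named kept probes with an SD of at least 0.2. For VPREB3 these were CD27 (r = 0.994), PGAP2 (r = 0.988) and CLC (r = 0.987). For MZB1 ILMN_2193233 they were GALC (r = 0.988), TFDP1 (r = 0.985) and SLC2A5 (r = 0.984), and for JCHAIN they were MIPEP (r = 0.994), HLA-DMA (r = 0.982) and TUBA4A (r = 0.976). The bright IGLL1 probe reached only 0.827 with NDRG1, 0.783 with S100A10 and 0.769 with PFKFB4. All points share treatment, time and normalization, and these are the highest of many correlations.

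The nearest protein-coding neighbours did not all move with the members. Beside VPREB3 on chromosome 22, ZNF70 was at 0.09 ± 0.08 (adjusted p = 0.471, limma), and CHCHD10 was at -0.47 ± 0.16 (adjusted p = 0.0712) with differences of 0.12, -0.41, -0.77 and -0.82. Beside MZB1 on chromosome 5, SLC23A1 was at -0.01 ± 0.07 (adjusted p = 0.927) and SPATA24 at 0.15 ± 0.08 (adjusted p = 0.185), while PAIP2 rose by 0.40 ± 0.08 (adjusted p = 0.0124; lost in 2 of 11 alternatives, at 0.0644 without the 8 h and 0.0749 without the 12 h arrays). Beside JCHAIN on chromosome 4, UTP3 fell by 0.31 ± 0.09 (adjusted p = 0.0487; lost in 6 of 11 alternatives, at 0.0583 to 0.130, with -0.20 without the 4 h arrays) and RUFY3 was at 0.33 ± 0.15 (adjusted p = 0.149). BCR, next to IGLL1 on chromosome 22, was at -0.04 ± 0.06 (adjusted p = 0.677). TOP3B, next to VPREB1, rose by 0.30 ± 0.06 (adjusted p = 0.0151, limma, lost in 5 of 11 alternatives, at 0.0520 to 0.283). Also beside VPREB1, ZNF280B was at 0.02 ± 0.06 (adjusted p = 0.868) and PPM1F at -0.15 ± 0.16 (adjusted p = 0.541). As VPREB1 itself was at background, its neighbours cannot be compared with it.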

How the data were processed

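Total RNA was labelled as biotinylated cRNA for Illumina bead arrays, per the labels' protocols. The deposited table of linear intensity holds 1 value per probe and array, neither normalized nor background-subtracted, as its values show. Its 10 further columns without a name held 0 values. The authors' other deposited table holds log2 values with a median of 6.67 on each array. Quantile-normalizing the log2 intensities anew came within 0.00126 of it. Further steps and the software are not given in the sources used here. Arrays give no read depth, and their number limits the precision.

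Probe genes came from the platform annotation: 30113 probes had 1 symbol, 8 several and 17110 none, and only the first were named. Of these 30074 matched the GRCh38.p14 gene table, used for names and neighbours, and 0 symbols changed. Promoter windows came from RefSeq on that assembly. No detection p-values were used, so 437 olfactory receptor probes set the background.

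The treatment difference was the limma 3.58.1 (R 4.3.3) coefficient of BAY1238097 over DMSO, with time as a factor (lmFit and eBayes, two-sided, Benjamini-Hochberg over 18640 probes, threshold 0.05). Errors are its moderated standard errors. Slopes on log2 hours came from a model over all 8 arrays with treatment. A gene in a list was represented by its brightest kept probe. Deviations from the group means of the 2 arrays at each time correlated (r = 0.598, 0.4, 0.672 and 0.48), so the times, which the labels give, were kept as pairs. The script was tested on artificial data with known changes. Figures used matplotlib 3.10.9.

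Named genes were all members, up to 4 genes per list with the largest difference past the threshold, the 3 probes most like each member and the nearest neighbours. FCRLA, MS4A1, TRAT1, MS4A7, LCK, CD14, CD79B, SPI1, IRF8, IRF4, EBF1, CD79A, ERO1A, HSP90B1, HSPA5, SEC61A1, SSR1, SDC1, XBP1, CD38, PRDM1 and POU2AF1 were added after their values were seen. The members and lists were chosen with earlier results of these data known. Alternatives were normexp background correction (offset 50), median scaling, no filter and a stricter filter on dim probes (all 8 arrays, 14529 probes), a variance trend, the mean of a gene's probes, hours in place of log2 hours, no time factor, and leaving out each time.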

Additional observations from a re-analysis of the deposited data

How the results depend on the processing

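Filters, the time factor and repeating the normalization cannot or did not change a member's difference. MZB1 ILMN_1662878 moved from -1.73 to -1.90 with normexp and -1.92 with median scaling, VPREB3 from -1.36 to -1.52 and -1.54, and JCHAIN from -0.28 to -0.21 with median scaling. Leaving out a time gave -1.79 to -1.12 for VPREB3 and -1.71 to -1.01 for MZB1 ILMN_2193233. Probes higher numbered 2364 in the reported fit, 1163 with median scaling, 991 with the time point left out (no pairing of the arrays) and 777 (without 12 h) to 3234 (without 4 h) leaving out a time. Probes lower numbered 2394, 3752, 1181 and 882 (without 12 h) to 3138 (without 4 h). Leaving out the 8 h arrays gave 871 higher and 904 lower. Pathway genes higher numbered 6, 1 with median scaling, 3 without the time point and 0 to 7 leaving out a time; the 0, in limma without 12 h, stands beside 8 at an unadjusted p under 0.05. Those lower numbered 21, 32, 9 and 11 to 29. Of 110 list counts 79 stayed within 1.5 times.

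Probes with a DMSO slope numbered 831 by limma, 1364 with normexp, 0 with median scaling (6142 at an unadjusted p under 0.05), 282 without a filter, 0 with hours (2685 unadjusted) and 0 (without 4 h or 8 h; 2021 and 4208 unadjusted) to 3327 (without 24 h) leaving out a time. Those with a BAY1238097 slope numbered 1331, 0 with median scaling (4232 unadjusted), 39 with hours and 1 (without 8 h) to 2327 (without 24 h). Member slopes are given without calls. A difference of slopes was called for 0 probes in limma, beside 2091 unadjusted. The causes were not tested. With 1 array per treatment and time, no time has a replicate of its own, and probes near background give only a bound.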
